A study of Rattus norvegicus with 12 samples.

Results

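The genes described here make fatty acids from citrate in the hepatocyte, the main metabolic cell of the liver: Slc13a5, Acly, Me1, Acaca, Fasn, Elovl6, Scd, Srebf1, Mlxipl and Thrsp. They were chosen by gene, not by their measured values, as every probe on the array whose name, older name or description is one of these genes, with the stearoyl-CoA desaturase Scd2 taken in beside Scd. This gave 11 of 35532 gene names on the array, with 20 of its 41012 probes. All 20 passed the filter on dim probes, as did 30979 of all probes. Slc13a5, Acly, Scd, Mlxipl and Thrsp had 1 probe each, Acaca, Fasn and Elovl6 had 2 each, and Me1, Scd2 and Srebf1 had 3 each.

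The RNA came from primary hepatocytes that collagenase had freed from the livers of Sprague-Dawley rats aged 11 weeks. The cells of every group were plated for 24 h in medium with serum, kept for 24 h without serum, and then exposed for 6 h. The 4 groups of 3 arrays were male cells with 100 nM dexamethasone (the labels write "nm"), a synthetic glucocorticoid, male cells with its vehicle of 0.01% ethanol, female cells with dexamethasone and female cells with vehicle. The sex is that of the sample titles, since a separate field reads male for all 12 samples, and the labels do not say whether the replicates of a group stem from different animals or cultures, so the p-values rest on a spread that may be technical. Levels here and below are log2 processed signals relative to the 75th percentile of their array, so they compare arrays at 1 probe and not probes with each other. Of 4 genes known for sex-biased expression in rat liver, chosen after the data were seen, 3 separated the titled sexes on all 12 arrays: Cyp2c12 lay between 3.79 and 4.82 on the female arrays and between 0.86 and 2.77 on the male arrays, Cyp2c13 between -1.58 and 0.06 and between 1.85 and 3.07, and Cyp3a2 between -7.02 and -1.97 and between -0.37 and 1.86. The other, Cyp2c11, overlapped, with -2.12 to -0.23 on the female arrays and -0.49 to 1.80 on the male arrays.

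Hepatocytes make fatty acids from sugar-derived carbon. Citrate, exported from mitochondria or taken up from outside by the sodium-coupled carrier Slc13a5, is split by Acly into acetyl-CoA, which Acaca carboxylates and Fasn assembles into palmitate with NADPH that Me1 helps to supply. Elovl6 lengthens the chain, and the stearoyl-CoA desaturases Scd and Scd2 put in a double bond. Srebf1, which responds to insulin, and Mlxipl (ChREBP), which responds to glucose, are the transcription factors that turn these genes on, and Thrsp (Spot 14) is a small protein that rises with them. Glucocorticoids are known to favour fat synthesis in liver together with insulin.

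All 3 male vehicle arrays and male dexamethasone replicate 1 shared slide 1, where 45.7% to 66.5% of probes were well above background, against 72.4% to 80.4% on the other 8 arrays. The other male dexamethasone arrays were on slide 2, together with female vehicle replicates 1 and 2. The 3 female dexamethasone arrays were on slide 3 with female vehicle replicate 3. Dim probes are therefore least certain in the male vehicle group. The response in males can be read within slide 1 and that in females within slide 3, but no slide held both sexes under the same treatment. Each of the 10 hepatocyte markers looked for was well above background on all 12 arrays, and Fkbp5 and Tat, textbook glucocorticoid targets, rose in both sexes, Fkbp5 by 2.93 ± 0.18 (SE) in males and 2.84 ± 0.18 in females and Tat by 2.82 ± 0.21 and 3.16 ± 0.21 on the log2 scale.

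Of the 11 genes, 4 had a probe that passed with dexamethasone in males and 0 in females, some rising and some falling. In male cells 2 of the 20 probes rose (Slc13a5 and 1 probe of Elovl6) and 3 fell (2 probes of Me1 and 1 of Srebf1) at an adjusted p under 0.05 in limma, where 5.36% of all probes rose and 4.85% fell. In female cells none of the 20 passed, where 2.80% of all probes rose and 1.01% fell; 8 of the 20 had an unadjusted p under 0.05. The median difference over the 20 probes was -0.23 in males and -0.24 in females on the log2 scale, against -0.06 and -0.02 over all probes. The difference of the responses, female minus male, passed for 0 of the 20 probes and for 0.0742% of all probes as higher and 0.0323% as lower, and 3 of the 20 had an unadjusted p under 0.05 there, so none of the responses below was shown to differ between the sexes.

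**Figure D1:**
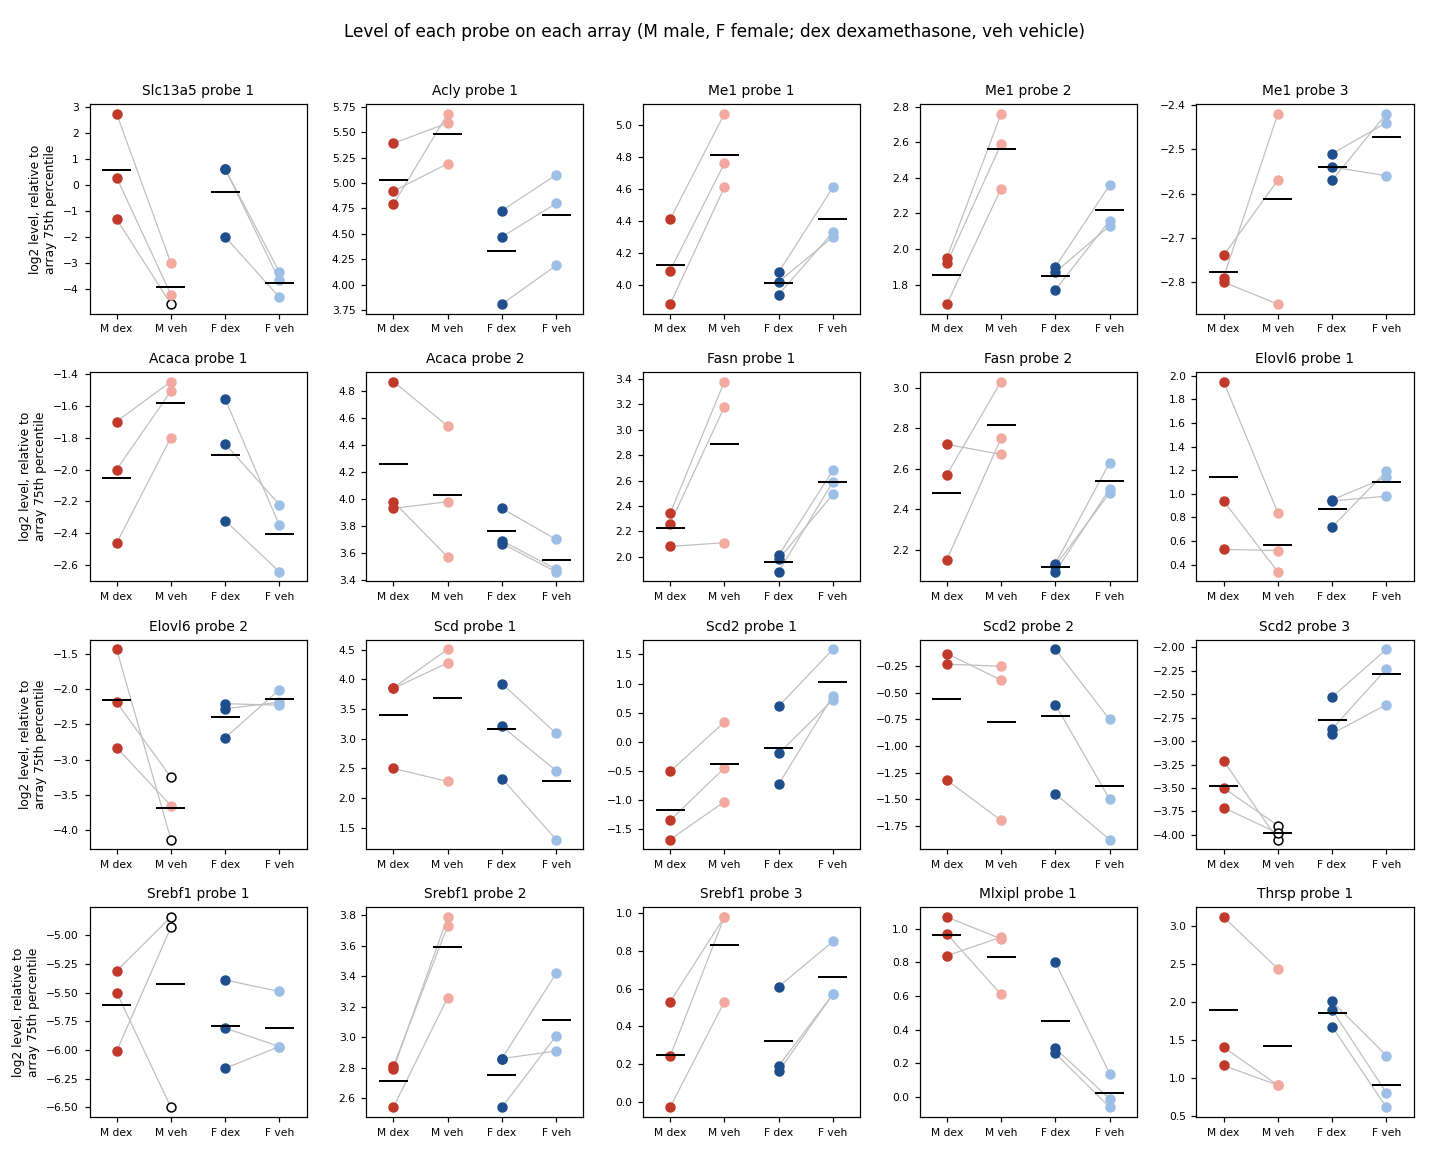
Level of each of the 20 probes on each array, as log2 processed signal relative to the 75th percentile of its array; points are arrays, short lines are group means, grey lines join arrays of the same replicate number, and open points were not well above background. Slc13a5 is higher on every dexamethasone array than on any vehicle array, and open points occur only in the male vehicle group.

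Slc13a5 carries citrate from the blood into the hepatocyte. Its log2 level was -1.32, 2.75 and 0.29 on the male dexamethasone arrays, against -4.60, -3.02 and -4.23 on the male vehicle arrays. It was -2.00, 0.62 and 0.62 on the female dexamethasone arrays, against -4.34, -3.37 and -3.68 on the female vehicle arrays. The treated and untreated arrays did not overlap in either sex, and the dexamethasone arrays were more spread (SD 2.05 in males and 1.51 in females) than the vehicle arrays (0.83 and 0.49, n = 3 each).

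The rise in males was 4.52 ± 0.96 (SE) on the log2 scale, 23-fold, with a limma adjusted p of 0.016; male vehicle replicate 1 was not well above background. In females the difference was 3.54 ± 0.96, 11.7-fold, with an adjusted p of 0.071. The size depends on the background. With normexp background correction the differences were 3.08 ± 0.79 in males (adjusted p = 0.027) and 2.88 ± 0.79 in females (0.082). Same-numbered arrays of a sex varied together (the correlations stand with the methods), and within those pairs Slc13a5 differed by 3.29, 5.76 and 4.52 in males and by 2.34, 3.99 and 4.31 in females. With these pairs as a block, a fit added after the data were seen, the adjusted p was 0.0057 in males and 0.017 in females, so the female value passed as well; with the planned block of the numbers across both sexes these were 0.0029 and 0.011. With slide as a block neither sex passed, at an adjusted p of 0.30 in males and 0.27 in females. With the arrays of each sex alone these were 0.077 and 0.041, and with array weights 0.070 and 0.0040. Within slide 1 the male difference was 2.64 from 1 dexamethasone array, and within slide 3 the female difference was 3.43 against 1 vehicle array. The difference of the responses was -0.98 ± 1.36 (adjusted p = 0.85), and the sexes differed by 0.15 ± 0.96 in vehicle and -0.83 ± 0.96 in dexamethasone, neither past the threshold.

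The probe of Slc13a5 lies at chr10:59147269-59147328 on the minus strand of rn3, the build of the array files. The 250 bases before its listed transcription start, from RefSeq on the newer build GRCr8 (chr10:57388849-57389098, minus strand), are shown because this gene changed most, beside those of the 2 listed starts of Srebf1 (chr10:45529165-45529414 and chr10:45519011-45519260, minus strand), a regulator that fell in males; capitals mark the letters CCAAT on either strand.
Slc13a5: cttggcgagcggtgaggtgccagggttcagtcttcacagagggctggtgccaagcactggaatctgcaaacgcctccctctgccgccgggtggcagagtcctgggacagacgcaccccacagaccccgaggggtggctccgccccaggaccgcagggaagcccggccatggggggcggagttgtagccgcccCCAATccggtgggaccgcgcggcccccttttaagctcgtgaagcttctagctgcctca
Srebf1 start 1: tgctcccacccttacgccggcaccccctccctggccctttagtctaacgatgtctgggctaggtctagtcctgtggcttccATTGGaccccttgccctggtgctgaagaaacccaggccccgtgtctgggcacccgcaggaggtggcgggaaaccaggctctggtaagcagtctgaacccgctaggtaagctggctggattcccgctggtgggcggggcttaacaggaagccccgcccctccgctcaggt
Srebf1 start 2: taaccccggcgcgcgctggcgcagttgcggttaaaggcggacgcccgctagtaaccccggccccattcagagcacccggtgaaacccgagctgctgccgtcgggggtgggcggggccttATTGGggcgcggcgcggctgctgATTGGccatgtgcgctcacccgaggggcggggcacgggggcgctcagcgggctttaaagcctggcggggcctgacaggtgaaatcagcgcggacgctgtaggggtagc
Windows of this kind were at hand for 10 starts of 8 of the genes. Searched on both strands, CCAAT stood in 8 of the 10 windows, some of which share a gene, and so in 6 of the 8 genes, and in 34% of 33465 promoters of the same length. The glucocorticoid half-site AGAACA (17.5% of all promoters), the nuclear receptor half-site AGGTCA (14.1%), the E-box CACGTG (5.59%) and the sterol element core TCACNCCAC (0.974%) stood in 0 of the 10, which says only that these letters are not in these windows.

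Acly, which cleaves citrate to acetyl-CoA, did not pass in any comparison. Its level was 5.39, 4.79 and 4.92 on male dexamethasone arrays, against 5.59, 5.68 and 5.19 on male vehicle arrays, and 4.73, 4.47 and 3.81 on female dexamethasone arrays, against 5.08, 4.80 and 4.19 on female vehicle arrays. Each dexamethasone array lay below the vehicle array of the same number, by 0.20 to 0.89 in males and 0.33 to 0.38 in females, while the groups overlapped. The fitted differences were -0.45 ± 0.30 (adjusted p = 0.36) and -0.35 ± 0.30 (0.67).

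Me1, the cytosolic malic enzyme that makes NADPH, fell in males at 2 of its 3 probes. At probe 2 the level was 1.95, 1.69 and 1.92 on male dexamethasone arrays, against 2.76, 2.34 and 2.59 on male vehicle arrays, and 1.90, 1.87 and 1.77 on female dexamethasone arrays, against 2.36, 2.13 and 2.16 on female vehicle arrays. The groups did not overlap in either sex. The change was -0.71 ± 0.16 in males (adjusted p = 0.019) and the difference -0.37 ± 0.16 in females (0.26). Probe 1, in the 3' flank by its description, gave -0.69 ± 0.18 in males (0.038) and -0.40 ± 0.18 in females (0.30), again without overlap.

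Probe 3 of Me1 did not follow the others in the main fit, with -0.17 ± 0.14 in males and -0.06 ± 0.14 in females. With normexp background correction the male difference was -0.43 ± 0.13 and passed (adjusted p = 0.041), while the female one was 0.03 ± 0.13 (0.98). The probe was dim, with mean signals of 95.2 to 200 over the groups, against 3420 to 5170 for probe 2. It is shown beside probe 2 because they read different parts of the gene: its first 20 bases, in capitals, are the end of the RefSeq window around the Me1 start and lie from base 31 after that start, at chr8:91975291-91975341 of rn3 on the minus strand, while probe 2 lies at chr8:91860659-91860717.
Me1 probe 2: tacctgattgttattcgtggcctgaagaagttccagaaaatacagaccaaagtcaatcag
Me1 probe 3: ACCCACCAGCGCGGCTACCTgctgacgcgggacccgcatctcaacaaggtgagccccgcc
The probe 3 entry carries a protein identifier in place of the gene symbol and was matched by its description.

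Fasn, the synthase that builds palmitate, was lower with dexamethasone at both of its probes but did not pass. At probe 1 the level was 2.26, 2.34 and 2.08 on male dexamethasone arrays, against 3.18, 3.38 and 2.11 on male vehicle arrays, and 2.01, 1.98 and 1.88 on female dexamethasone arrays, against 2.68, 2.49 and 2.59 on female vehicle arrays. In males only vehicle replicate 3 reached down to the treated arrays; in females the groups were apart. The differences were -0.67 ± 0.27 in males (adjusted p = 0.15) and -0.63 ± 0.27 in females (0.27). With slide as a block they did not pass either (0.50 and 0.73). Without male vehicle replicate 3 the male value was -1.06. Leaving out the array nearest the treated ones was bound to enlarge it, so that value is no test. Probe 2 gave -0.34 ± 0.17 (0.24) and -0.43 ± 0.17 (0.23), with female arrays between 2.09 and 2.13 in dexamethasone and between 2.48 and 2.63 in vehicle. Neither Fasn probe has a position in the files.

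Acaca, the carboxylase that commits acetyl-CoA to fat synthesis, gave unlike values at its 2 probes. Probe 1 (chr10:72691418-72691477, plus strand of rn3) read -2.00, -1.70 and -2.46 on male dexamethasone arrays, against -1.51, -1.45 and -1.80 on male vehicle arrays, and -1.84, -1.56 and -2.32 on female dexamethasone arrays, against -2.22, -2.35 and -2.64 on female vehicle arrays. Within same-numbered pairs the dexamethasone array was the lower in 3 of 3 male pairs and the higher in 3 of 3 female pairs. The fitted differences were -0.47 ± 0.24 in males and 0.49 ± 0.24 in females, and the difference of the responses was 0.96 ± 0.34 with an adjusted p of 0.29, so the contrast did not pass. Probe 2, in the 3' untranslated region by its description, gave 0.23 ± 0.29 and 0.21 ± 0.29, above 0 in 2 of 3 male pairs and 3 of 3 female pairs. Probe 1 is printed because it also differed between the sexes in vehicle.
Acaca probe 1: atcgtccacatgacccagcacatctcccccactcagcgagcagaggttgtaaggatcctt

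Elovl6 lengthens palmitate to stearate. At probe 2 the level was -2.19, -1.44 and -2.83 on male dexamethasone arrays, against -3.25, -4.13 and -3.65 on male vehicle arrays, of which only replicate 3 was well above background. On female arrays it was -2.21, -2.28 and -2.69 in dexamethasone, against -2.23, -2.19 and -2.01 in vehicle. The male groups were apart and the female groups overlapped. The rise in males was 1.52 ± 0.33 (adjusted p = 0.017), the female difference -0.25 ± 0.33 (0.83), and the difference of the responses, -1.77 ± 0.46, had the smallest p of the 20 probes there, 0.0028 unadjusted and 0.13 adjusted. With 2 of 3 male vehicle arrays not well above background these values depend on the background: with normexp background correction the male difference was 0.72 ± 0.25 and no longer passed (0.062), and the difference of the responses was -0.78 ± 0.35 (0.29). The male call was also lost without male dexamethasone replicate 2, at 0.051.

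Probe 1 of Elovl6, which was above background on every array, read 0.94, 1.95 and 0.53 on male dexamethasone arrays, against 0.34, 0.84 and 0.52 on male vehicle arrays. Its differences were 0.57 ± 0.30 in males (adjusted p = 0.25) and -0.24 ± 0.30 in females (0.82), with the signs of probe 2 and neither past the threshold, above 0 in 3 of 3 male pairs and below 0 in 3 of 3 female pairs. Probe 2 is shown because its 60 bases span 4774 bases of rn3 (chr2:227034274-227039047, plus strand), so it is read across a gap in the genome.
Elovl6 probe 2: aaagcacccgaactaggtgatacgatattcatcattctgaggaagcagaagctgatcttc

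Scd, the main liver desaturase, varied by replicate more than by treatment. Its level was 3.86, 3.85 and 2.5 on male dexamethasone arrays, against 4.51, 4.28 and 2.28 on male vehicle arrays, and 3.93, 3.21 and 2.33 on female dexamethasone arrays, against 3.09, 2.46 and 1.3 on female vehicle arrays. Replicate 3 was the lowest in each of the 4 groups, and the groups overlapped. The differences were -0.29 ± 0.67 in males (adjusted p = 0.83) and 0.87 ± 0.67 in females (0.62). Within female pairs the dexamethasone array was higher by 0.84, 0.74 and 1.03, and with pairs as a block the female value passed with an adjusted p of 0.047, but not with the numbers as a block across both sexes (0.059).

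The 3 probes of the paralogue Scd2 did not move together. Probe 1 gave -0.80 ± 0.45 in males (adjusted p = 0.28) and -1.14 ± 0.45 in females (0.22), below 0 in all 6 pairs; with pairs as a block it passed in both, at 0.024 and 0.014 (0.016 and 0.0064 with the numbers as a block across both sexes). Probe 2 gave 0.22 ± 0.49 and 0.66 ± 0.49, above 0 in all 6 pairs, and the female value passed with pairs as a block at 0.049, but not across both sexes (0.099). Probe 3 was well above background on no male vehicle array and on all 3 male dexamethasone arrays, and did not pass (adjusted p = 0.13); in females it gave -0.48 ± 0.20 (0.24). With normexp background correction its fitted male difference was -0.17 ± 0.21 (0.56), so no direction is given for males. Scd and Scd2 are close relatives, and the files do not show how far a probe of one reads the other.

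Srebf1, the sterol regulatory element binding factor, fell in males at 1 of its 3 probes. Probe 2 read 2.81, 2.79 and 2.54 on male dexamethasone arrays, against 3.73, 3.79 and 3.26 on male vehicle arrays, and 2.54, 2.86 and 2.86 on female dexamethasone arrays, against 3.01, 3.42 and 2.91 on female vehicle arrays. The groups did not overlap in either sex. The change was -0.88 ± 0.20 in males (adjusted p = 0.022) and the difference -0.36 ± 0.20 in females (0.44). Probe 3, printed on the array in 10 spots, gave -0.58 ± 0.21 in males (0.098) and -0.34 ± 0.21 in females (0.48), below 0 in all 6 pairs, and the male value passed with pairs as a block at 0.028, but not across both sexes (0.056). Probe 1 was near the background, on 0 of 3 male vehicle arrays above it, and gives no usable fold.

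Mlxipl, the carbohydrate response factor, and Thrsp were higher with dexamethasone in the female arrays without passing. Mlxipl read 0.97, 0.84 and 1.07 on male dexamethasone arrays, against 0.61, 0.95 and 0.94 on male vehicle arrays, and 0.80, 0.29 and 0.26 on female dexamethasone arrays, against 0.14, -0.01 and -0.06 on female vehicle arrays. Its difference was 0.13 ± 0.18 in males (adjusted p = 0.70) and 0.43 ± 0.18 in females (0.25). Thrsp read 1.17, 3.12 and 1.41 on male dexamethasone arrays, against 0.91, 2.44 and 0.91 on male vehicle arrays, and 1.90, 2.01 and 1.68 on female dexamethasone arrays, against 0.81, 1.3 and 0.62 on female vehicle arrays. Male replicate 2 was the highest in both male groups. The Thrsp difference was 0.48 ± 0.52 in males (0.59) and 0.95 ± 0.52 in females (0.41), above 0 in all 6 pairs, and the female value passed with pairs as a block at 0.019, but not with the numbers as a block across both sexes (0.14).

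**Figure D2:**
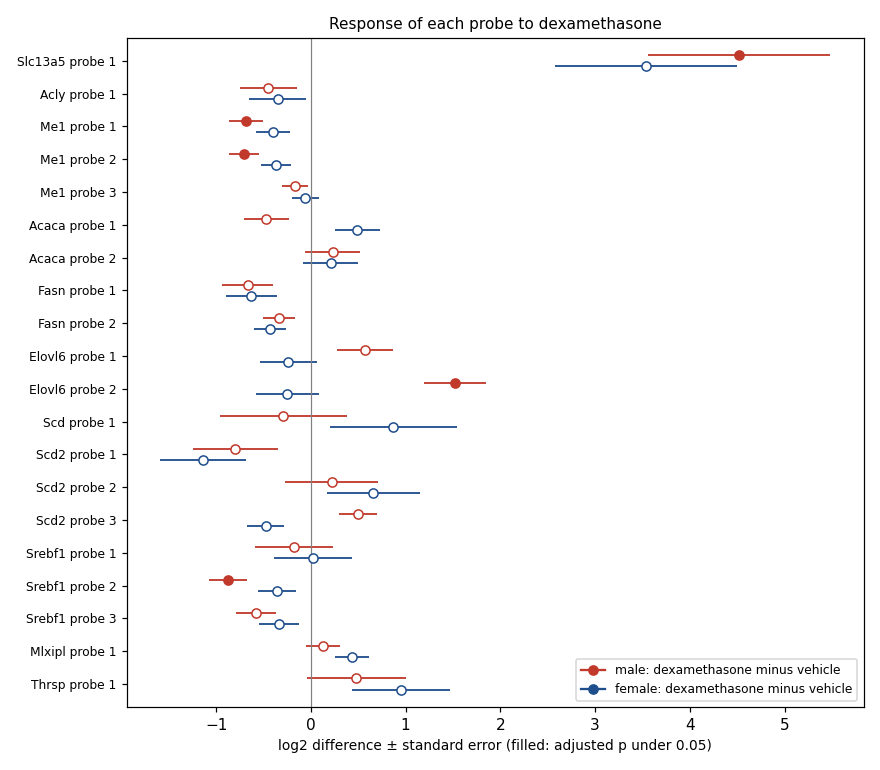
Difference between dexamethasone and vehicle for each of the 20 probes, in males (upper point of each row) and in females (lower point), as log2 difference with its standard error; filled points passed an adjusted p of 0.05. The Slc13a5 values, 4.52 and 3.54, stand far to the right, the Me1, Fasn and Srebf1 probes lie mostly left of 0 in both sexes, and only male points are filled.

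The count of calls in males moved with the fit. With slide as a block, with array weights and with the male arrays alone, 0 of the 20 probes passed, where 574, 1164 and 333 of all 30979 did; without male dexamethasone replicate 2, 1 of the 20 passed (Slc13a5), and without male dexamethasone replicate 3, 3 did. With normexp background correction 1 probe rose and 4 fell. With pairs as a block 7 passed in males, where 4898 of all probes did, and 5 in females (Slc13a5, Scd, Scd2 probes 1 and 2, and Thrsp), where 1999 did. With the numbers as a block across both sexes 6 passed in males and 2 in females (Slc13a5 and Scd2 probe 1), where 4003 and 1690 of all probes did.

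Averaged over both sexes, a comparison added after the data were seen and not independent of the 2 responses, Slc13a5 rose by 4.03 ± 0.68 (adjusted p = 0.0038), Me1 fell by 0.55 ± 0.13 at probe 1 (0.019) and 0.54 ± 0.11 at probe 2 (0.010), and Srebf1 fell by 0.62 ± 0.14 at probe 2 (0.017) on the log2 scale. Thus 1 of the 20 probes rose and 3 fell, against 6.79% and 6.42% of all probes. Fasn was close to the threshold, with -0.65 ± 0.19 at probe 1 (0.051) and -0.38 ± 0.12 at probe 2 (0.064), as was Srebf1 probe 3 with -0.46 ± 0.15 (0.060). With pairs as a block 9 of the 20 passed, where 6060 of all probes did, among them Fasn probe 1 (0.029), Srebf1 probe 3 (0.016), Scd2 probes 1 (0.0033) and 2 (0.030) and Thrsp (0.0066). With slide as a block none of the 20 passed, and with the array median in place of the 75th percentile 1 rose and 7 fell.

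Between the sexes, 4 of the 20 probes differed in vehicle, 2 of them higher and 2 lower in females, where 6.25% of all probes were higher and 7.73% lower. Under dexamethasone none of the 20 passed, against 1.23% and 1.77% of all probes; 4 of the 20 had an unadjusted p under 0.05 there. With the numbers as a block, which pair the sexes in dexamethasone, Scd2 probe 1 passed (1.07 ± 0.16, adjusted p = 0.0077), as did 1743 of all probes. The median female minus male difference of the 20 was -0.36 in vehicle and -0.17 in dexamethasone, against -0.04 and 0.02 over all probes. In vehicle, 2 were higher and 1 lower with quantile normalization or the array median, and 1 higher and 5 lower with normexp background correction. With normexp the median of all probes in vehicle was itself -0.36. These counts are not set beside a share over all probes and are not read as a result about these genes.

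Lower in female vehicle cells were Mlxipl, by -0.81 ± 0.18 (adjusted p = 0.016), and Acaca probe 1, by -0.82 ± 0.24 (0.048). Mlxipl averaged 0.02 ± 0.10 in female vehicle cells and 0.83 ± 0.19 in male vehicle cells (SD, n = 3 each), and 0.45 ± 0.30 and 0.96 ± 0.12 under dexamethasone, where the difference of -0.51 ± 0.18 did not pass (0.16). Neither vehicle comparison overlapped. Acaca probe 1 gave 0.14 ± 0.24 in dexamethasone (0.81), and probe 2 gave -0.50 ± 0.29 there (0.39) and -0.48 ± 0.29 in vehicle (0.29).

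Higher in female vehicle cells were 2 dim probes. Scd2 probe 3 averaged -2.29 ± 0.30 in female vehicle cells and -3.98 ± 0.08 in male vehicle cells, where no array had it well above background. With the deposited background subtraction and a floor set for the male arrays, it was 2.53-fold higher in females. The adjusted p of 0.00098 belongs to the difference fitted in limma and not to that fold. For that fold each male array counted at the dimmest signal it had well above background, or at the probe's own signal where that was higher, and the female mean was set against the mean of these. This floor is not a strict limit. On male vehicle replicate 3, Slc13a5 was well above background at a signal of 36.98, and Scd2 probe 3 was not at 44.01. Elovl6 probe 2 was higher by 1.53 ± 0.33 (0.013), with 1 of 3 male vehicle arrays above background. With normexp background correction neither passed, Scd2 probe 3 at 0.51 ± 0.21 (0.062) and Elovl6 probe 2 at 0.53 ± 0.25 (0.092). Other probes of these genes, Scd2 probe 1 with 1.42 ± 0.45 (0.060) and Elovl6 probe 1 with 0.54 ± 0.30 (0.26), did not pass, though their vehicle arrays did not overlap; Scd2 probe 2 gave -0.60 ± 0.49 (0.45).

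Several members leaned lower in female cells under both treatments. Acly was lower by -0.80 ± 0.30 in vehicle (adjusted p = 0.097) and -0.70 ± 0.30 in dexamethasone (0.24), without overlap in either and without a call. Fasn probe 2 gave -0.28 ± 0.17 and -0.37 ± 0.17 and did not overlap either. Slc13a5, Me1 and Thrsp overlapped between the sexes in vehicle. The 4 calls in vehicle compare slide 1 with slides 2 and 3, and with slide as a block none passed; Scd2 probe 3 had an adjusted p of 0.057 there and the others lay between 0.36 and 0.59.

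**Figure D3:**
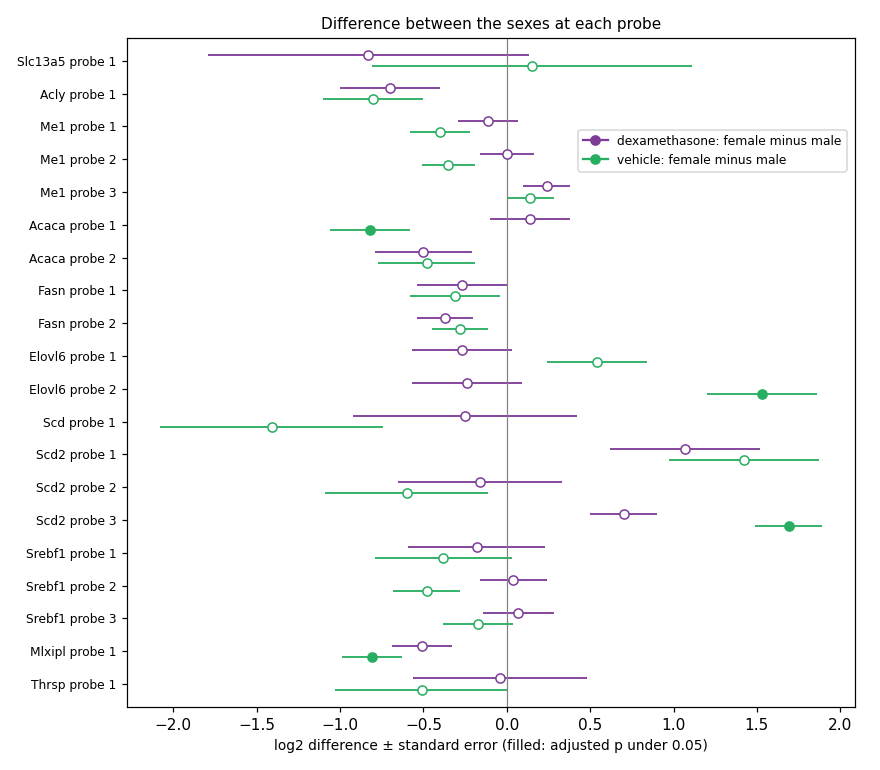
Difference between female and male cells for each of the 20 probes, in dexamethasone (upper point of each row) and in vehicle (lower point), as log2 difference with its standard error; filled points passed an adjusted p of 0.05. The 4 filled points are all in vehicle, Scd2 probe 3 and Elovl6 probe 2 to the right of 0 and Acaca probe 1 and Mlxipl to the left.

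Markers of other cells differed with sex. Of 6 stellate cell and fibroblast markers measured, Lrat, Pdgfrb, Col3a1 and Dcn were higher in female vehicle cells. Lrat and Pdgfrb were well above background on 0 of 3 male vehicle arrays and Dcn on 1 of 3. Summed over all 6 markers, the level was 3.63 to 7.06 times the 75th percentile of the array in female vehicle cells. In male vehicle cells it was 0.824 to 2.86. Under dexamethasone Lrat and Pdgfrb were higher in females, with sums of 2.11 to 3.37 against 0.863 to 2.59. Csf1r of macrophages was higher in female vehicle cells. The other 8 macrophage markers measured did not pass, and the sums overlapped (25.5 to 67.5 against 22.6 to 45.3 in males). Lower in female vehicle cells were Vwf of endothelium, Epcam of bile duct cells and the hepatocyte genes Fgb and Ass1. Vwf was above background on 1 of 3 male and 3 of 3 female vehicle arrays, so its direction is uncertain. The other 8 hepatocyte markers did not pass. The sums of all 10 did not overlap, at 788 to 975 in female and 1170 to 1650 in male vehicle cells. With dexamethasone they were 946 to 970 and 1050 to 1250. The other endothelial and bile duct markers did not pass, and the median difference was above 0 over both lists (0.31 and 0.94). Their sums in female and male vehicle cells overlapped, at 1.2 to 2.38 against 0.812 to 2.95 and 4.67 to 5.34 against 1.43 to 7.49. With slide as a block Pdgfrb and Col3a1 were still called in vehicle, at adjusted p of 0.020 and 0.031, and Pdgfrb in dexamethasone, at 0.048, while Lrat (0.055 in vehicle and 0.14 in dexamethasone), Dcn (0.078), Csf1r (0.32), Vwf (0.42), Epcam (0.47), Fgb (0.36) and Ass1 (0.32) were not. No slide held both sexes under the same treatment, so that fit compares the sexes only through arrays of the other treatment. Adipoq, the fat cell hormone adiponectin, was higher in females under both treatments and averaged -3.33 ± 0.49 in female vehicle cells and -5.88 ± 0.54 in male vehicle cells, where it was above background on 0 of 3 arrays. Adipoq no longer passed with slide as a block, at 1.93 ± 0.72 (0.42) in dexamethasone and 0.78 ± 0.72 (0.65) in vehicle, and with normexp background correction, at 0.81 (0.079) and 0.36 (0.23). The other 3 fat cell markers measured did not pass and the summed level overlapped (4.48 to 8.57 against 3.48 to 5.82), while Lep and Retn did not pass the filter. In the responses Lyve1 rose in males (above background on 1 of 3 vehicle arrays there), and Vwf rose and Pdgfrb fell in females. Pdgfrb had an adjusted p of 0.059 with pairs as a block. With slide as a block none of these was called (0.16, 0.23 and 0.56). Kdr, also endothelial, averaged lower with dexamethasone (-1.17 against 0.24 in males, -0.47 against 0.55 in females) without passing. Of the hepatocyte markers Cps1 rose in both sexes, Ass1 rose in females and Fgb fell in males, none called with slide as a block. No fat cell, macrophage or cholangiocyte marker passed in either sex. The part of these markers in the results was not tested, and in bulk RNA fewer cells of a type and less RNA per cell cannot be told apart.

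Of 14 measured genes of substrate and NADPH supply described here, 1 rose and 1 fell in males, and 1 rose and none fell in females, where 5.36% and 4.85% of all probes did in males and 2.80% and 1.01% in females. Pfkfb1, the bifunctional enzyme that sets fructose 2,6-bisphosphate, averaged 4.10 ± 0.42 with dexamethasone and 0.45 ± 0.31 with vehicle in males, and 3.56 ± 0.12 and 0.04 ± 0.25 in females (SD, n = 3 each). It rose by 3.66 ± 0.24 (12.6-fold, adjusted p = 4.5e-05) in males and 3.52 ± 0.24 (11.5-fold, 5.9e-05) in females. Pklr, the liver pyruvate kinase, fell by 0.74 ± 0.19 in males (0.033) on the log2 scale.

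Pfkfb1 kept its call with slide as a block in both sexes, at adjusted p of 0.0081 in males and 0.0069 in females; Pklr did not, at 0.070. Between the sexes in vehicle, Pklr was lower by -1.19 ± 0.19 (0.0038) and Aacs, acetoacetyl-CoA synthetase, was higher by 0.63 ± 0.17 (0.030) in females; with slide as a block neither passed, Pklr at -1.68 ± 0.33 (0.066) and Aacs at 0.30 ± 0.31 (0.69). None of the 14 passed in dexamethasone, where Aacs had the smallest p (0.64 ± 0.17, adjusted p = 0.065).

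Of 13 measured genes of elongation, desaturation and activation, 1 rose and 1 fell in males and 1 rose in females, against the same 5.36%, 4.85% and 2.80% of all probes. Acsl4, an acyl-CoA synthetase that prefers arachidonate, rose by 0.99 ± 0.17 in males (adjusted p = 0.0078) and 0.94 ± 0.17 in females (0.016), and Acsl1, the main liver form, fell by 0.83 ± 0.14 in males (0.0056) on the log2 scale. With slide as a block these were at 0.054, 0.087 and 0.056. Hsd17b12, the ketoacyl reductase of elongation, was higher in female vehicle cells by 0.72 ± 0.21 (0.042), but only by 0.08 ± 0.34 (0.94) with slide as a block. None passed in dexamethasone, where Hsd17b12 again had the smallest p (0.63 ± 0.21, adjusted p = 0.13).

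Of 19 measured regulators, 3 rose and 3 fell in males and 1 fell in females, against 5.36%, 4.85% and 1.01% of all probes. Insig2, which holds SREBP precursors in the endoplasmic reticulum, fell by 1.44 ± 0.18 (adjusted p = 0.0013) in males, Mid1ip1, a partner of Thrsp that activates acetyl-CoA carboxylase, by 1.24 ± 0.16 (0.0019), and the upstream factor Usf1 by 0.91 ± 0.20 (0.018) on the log2 scale. The coactivator Ppargc1b rose by 1.44 ± 0.37 (0.036), and the catalytic subunits of AMP-activated kinase, which inhibits the carboxylase, rose by 1.34 ± 0.19 for Prkaa1 (0.0025) and 0.73 ± 0.19 for Prkaa2 (0.037; 0.055 with pairs as a block). In females only Mid1ip1 passed, at -0.80 ± 0.16 (0.025). Insig2 and Mid1ip1 kept their male calls with slide as a block, at 0.037 and 0.048; Usf1, Ppargc1b, Prkaa1 and Prkaa2 did not, at 0.20, 0.33, 0.056 and 0.27, nor did Mid1ip1 in females, at 0.32. Prkaa1 was also higher in female than in male vehicle cells, by 1.14 ± 0.19 (0.0043; 0.25 with slide as a block), and no regulator passed between the sexes in dexamethasone, where Prkaa2 had the smallest p (-0.43 ± 0.19, adjusted p = 0.26). The difference of the responses passed for none of these 46 genes.

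**Figure D4:**
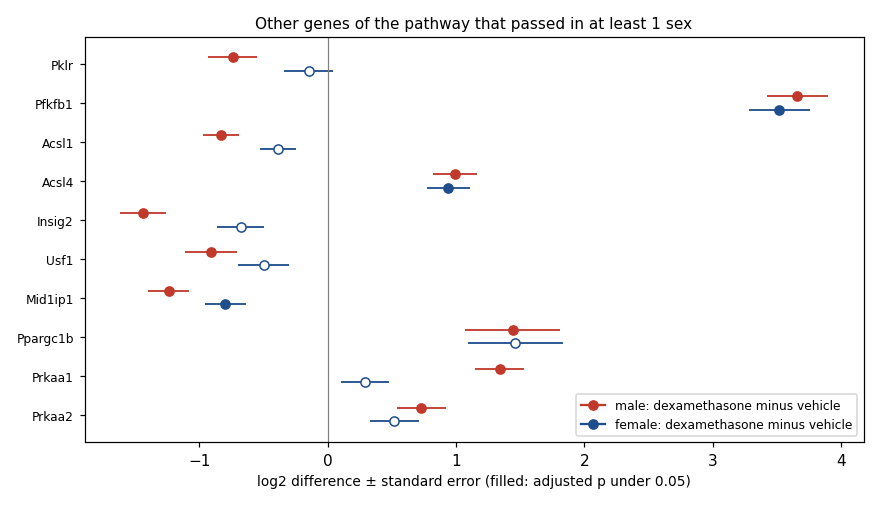
Difference between dexamethasone and vehicle for 10 other genes of the pathway that passed in at least 1 sex, in males (upper point of each row) and in females (lower point), as log2 difference with its standard error; filled points passed an adjusted p of 0.05. Pfkfb1, at 3.66 and 3.52, and Acsl4 and Mid1ip1 are filled in both sexes.

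The probes most like Slc13a5 over the 12 arrays, by the root mean square difference of levels centred on their own mean, were 2 probes of Rdh16, a retinol and steroid dehydrogenase (0.73 and 0.822 on the log2 scale), and 1 of Gucy2c, the receptor guanylate cyclase 2C (0.887), out of 16122 probes of other named genes; Slc13a5 itself ranged over 7.35. The first Rdh16 probe averaged 2.09 with dexamethasone and -2.15 with vehicle in males, and 1.32 and -2.53 in females. Gucy2c averaged -0.09 and -2.86 in males, and -0.31 and -3.79 in females. All 3 probes were, like Slc13a5, highest on male dexamethasone replicate 2.

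For Fasn probe 2, which ranged over 0.94, the closest were Usp6nl (0.114), Marchf5 (0.12) and Ddx10 (0.129), and for Srebf1 probe 2, which ranged over 1.26, they were the organic anion carrier Slco1a4 (0.125), Arid5a (0.129) and the acyltransferase Porcn (0.14). Slco1a4 averaged -0.75 with dexamethasone and 0.13 with vehicle in males, and -0.80 and -0.37 in females.

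**Figure D5:**
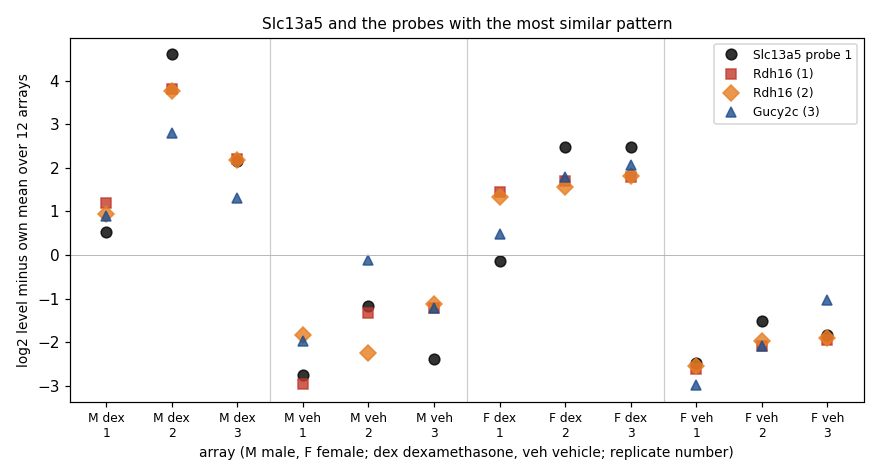
Levels of Slc13a5 and of the 3 probes with the most similar pattern on each of the 12 arrays, as log2 level minus the mean of the probe over all arrays. All 4 are highest on male dexamethasone replicate 2, and Slc13a5 lies lower on female dexamethasone replicate 1 than on replicates 2 and 3.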

How the data were processed

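RNA (500 ng) of 12 samples was labelled with Cy3 and hybridised to 1-colour rat arrays, 4 to a slide. The deposited array files give intensity per spot, from Agilent Feature Extraction 9.5.3.1 per the file headers (9.5 in the submitters' processing notes), background-subtracted within each array and not scaled between arrays. The authors' deposited value table repeats these intensity values (540216 of 540216 compared were equal), so it is linear and uncentred. Its column medians were 80.6, 95.5 and 98.1 for male dexamethasone, 44.7, 47.1 and 63.6 for male vehicle, 103, 103 and 99.1 for female dexamethasone, and 109, 80.6 and 112 for female vehicle.

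From the deposited intensity, log2 values minus the 75th percentile of the array were computed, without outlier spots and with saturated ones, as a mean over the spots of a probe. A probe was tested where all 3 arrays of some group had it well above background. Names came from the file, updated through RefSeq where accession or symbol matched (19916 of 41012 probes), and a list gene with several probes was represented by the one of highest mean. A model of 4 group means on all 12 arrays was fitted with limma 3.58.1 in R 4.3.3 (lmFit, contrasts.fit, eBayes; two-sided, Benjamini-Hochberg over 30979 probes) and tested on simulated data. Errors after a difference are standard errors. The number of arrays limits the precision.

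The labels give each group replicates 1 to 3. Deviations from the group means correlated between same-numbered arrays by 0.27, 0.46 and 0.27 in males, by 0.43, 0.27 and 0.35 in females, by 0.18, 0.17 and 0.21 between the sexes in dexamethasone, and by 0.11, 0.02 and 0.04 between the sexes in vehicle. The numbers were therefore taken to pair the arrays of 1 sex, and those of both sexes in dexamethasone, though no label says what a number stands for. Members, gene lists and markers were chosen with earlier results of these data known. One gene of the lists is not reported here. All member probes are described; of the lists, up to 3 rises and 3 falls that passed in a comparison are named, or the gene of smallest p. Alternatives were other scalings, background correction, filters, blocks, weights and subsets of arrays.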

Additional observations from a re-analysis of the deposited data

How the results depend on the processing

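Of the values of the 20 probes recomputed under the alternatives, 2203 kept their side of the threshold and, where called, their direction, 56 lost the call, 68 gained one and 1 turned: Me1 probe 3 between the sexes in vehicle was -0.36 with normexp background correction, against 0.14. In males 5 probes passed, 3 with only probes above background on all 12 arrays or with 1 probe per gene name, and 0 with slide as a block, array weights, the male arrays alone or within slide 1; leaving out 1 array gave 1 to 7, the 7 without male vehicle replicate 3. In females 0 passed, 5 with array weights, 4 with the female arrays alone and 1 with slides 2 and 3 alone; leaving out 1 array gave 0. The difference of the responses gave 0, and 2 with no filter on dim probes (Elovl6 probe 2 and Scd2 probe 3). In vehicle 4 differed between the sexes, 1 with 1 probe per gene name, 2 with array weights or the vehicle arrays alone, and 0 with slide as a block; leaving out 1 array gave 2 to 8, the 8 without male vehicle replicate 3 and 2 without female vehicle replicate 2 or 3. In dexamethasone 0 differed, and 3 with array weights. The mean of both responses gave 4, 8 with the array median, 7 with no filter, 0 with slide as a block, and 3 to 6 leaving out 1 array. The planned replicate block, across both sexes, gave 6 in males, 2 in females, 7 between the sexes in vehicle, 1 in dexamethasone and 7 for the mean response. The replicate block within sex gave 7 in males, 5 in females and 9 for the mean response; beside the calls gained, and those of Prkaa2 and Pdgfrb lost, it changed no other call named for the responses of either sex. Over all probes, 3161 passed in males, 574 with slide as a block, 0 within slide 1 and 12610 with no filter; 1182 in females, 309 with slide as a block and 5213 with array weights; and 4332 between the sexes in vehicle, 176 with slide as a block and 14243 with no filter. The median of all probes was -0.24 in the male response and -0.36 between the sexes in vehicle with normexp, against -0.06 and -0.04. The cause was not tested. Where no count over all probes is given, the counts of the 20 under an alternative show only how far their calls held. Dim signal on slide 1 limits the male vehicle levels.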
